A study of Populus trichocarpa with 18 samples.

Results

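In protoplasts of Populus trichocarpa (black cottonwood) transfected with PtrSND1-B1, 84 genes stood above the sGFP control in every one of 9 pairs of libraries, by a mean of at least 0.6 on a log2 scale. These 84 genes are described here across the 18 libraries of the series. They were chosen from 40668 loci, each represented by its first gene model, of which 26633 reached a CPM of 1 in at least 3 libraries, so the members were 0.315% of the genes kept. CPM is the count of a gene scaled to the same total in each library. For each gene and pair, the difference was log2(CPM + 1) in the PtrSND1-B1 library minus that in the sGFP library of the same time and replicate number. A member had a difference above 0 in all 9 pairs and a mean difference of 0.6 or more. The transfected gene itself, POPTR_0014s10060.1, met the rule with a mean difference of 7.91 and was left out. All differences between PtrSND1-B1 and sGFP given below were used to choose the genes and are descriptions. Where edgeR or DESeq2 counts of that contrast, or of its change with time, are printed, they rest on the same values and support nothing.

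The cells were protoplasts from stem differentiating xylem of greenhouse plants, the young wood in which cells expand and thicken their walls. DNA was delivered with polyethylene glycol (PEG). The treated protoplasts overexpressed PtrSND1-B1 and sGFP (a fluorescent reporter) and the control protoplasts only sGFP, so every library came from cells that had lost their walls and been transfected with sGFP. Total RNA was sequenced at 7, 12 and 25 h after transfection, with 3 libraries in each of the 6 groups. The labels do not say whether the replicates were separate plants, protoplast isolations or transfections, so p-values reflect library-to-library spread that may be purely technical. No untransfected or untreated cells were analysed here.

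SND1-type proteins are NAC-domain transcription factors that sit near the top of the network controlling secondary cell walls. In xylem fibres they switch on a layer of MYB and other transcription factors, and together these raise genes for cellulose, xylan and lignin. PtrSND1-B1 is a poplar member of this group. The deposited identifiers are not paired with gene names, and none of them was found in the reference gene table, so no gene below is given a name or a role. For the same reason the labelled cell type was not checked against marker genes, and members are described by their identifiers and values.

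The libraries held 2690853 to 13970708 counts over first models, so that 1 read was worth 0.0716 to 0.372 CPM. The transfected gene stood at 366 to 3442 CPM in the 9 PtrSND1-B1 libraries and at 1.66 to 10.7 CPM in the 9 sGFP libraries, with no overlap. At each time replicate 1 had the highest level of it and replicate 3 the lowest among the PtrSND1-B1 libraries. Endogenous and introduced transcripts of that gene cannot be told apart by these counts. CPM values are not scaled by gene length and compare libraries, not genes.

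The mean difference of the 84 members ran from 0.60 to 3.58, with a median of 0.82, against a median of 0.01 over all 26633 genes kept. It was at least 1 in 35 members, at least 2 in 8 and at least 3 in 2. Another 439 genes were higher in all 9 pairs with a smaller mean, and 450 genes were lower in all 9 pairs, 63 of them by 0.6 or more. Just inside the threshold were POPTR_0016s06090.1, POPTR_0006s13120.1 and POPTR_0005s23660.1 with means of 0.61, 0.60 and 0.60. Just outside it were POPTR_0013s02730.1, POPTR_0019s15210.1 and POPTR_0007s01680.1 with means of 0.59, 0.58 and 0.58. The members near the threshold therefore differed little from genes that were left out.

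Of the 84 members, 71 reached 1 CPM in at least 3 sGFP libraries as well. The other 13 passed the filter only through PtrSND1-B1 libraries and so had to differ. Mean levels ran from 0.0558 to 97.2 CPM in sGFP protoplasts and from 0.935 to 149 CPM in PtrSND1-B1 protoplasts. In sGFP protoplasts 18 members averaged under 1 CPM, and 21 had no read in at least 1 of the 9 libraries, while every member was detected in every PtrSND1-B1 library. At 7 h 43 members had no overlap between the 3 PtrSND1-B1 and the 3 sGFP libraries, where 3.93% of all genes kept were above without overlap. The counts were 38 members at 12 h, against 1.81% of genes, and 48 at 25 h, against 1.88%. At all times together 23 members did not overlap, against 0.0976% of genes. By edgeR over the mean of the times, 22 of 80 members were called higher, as were 0.135% of all genes, and with a block for the replicate number 59 were (0.463%). These counts follow from the rule and are given as a description.

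**Figure D1:**
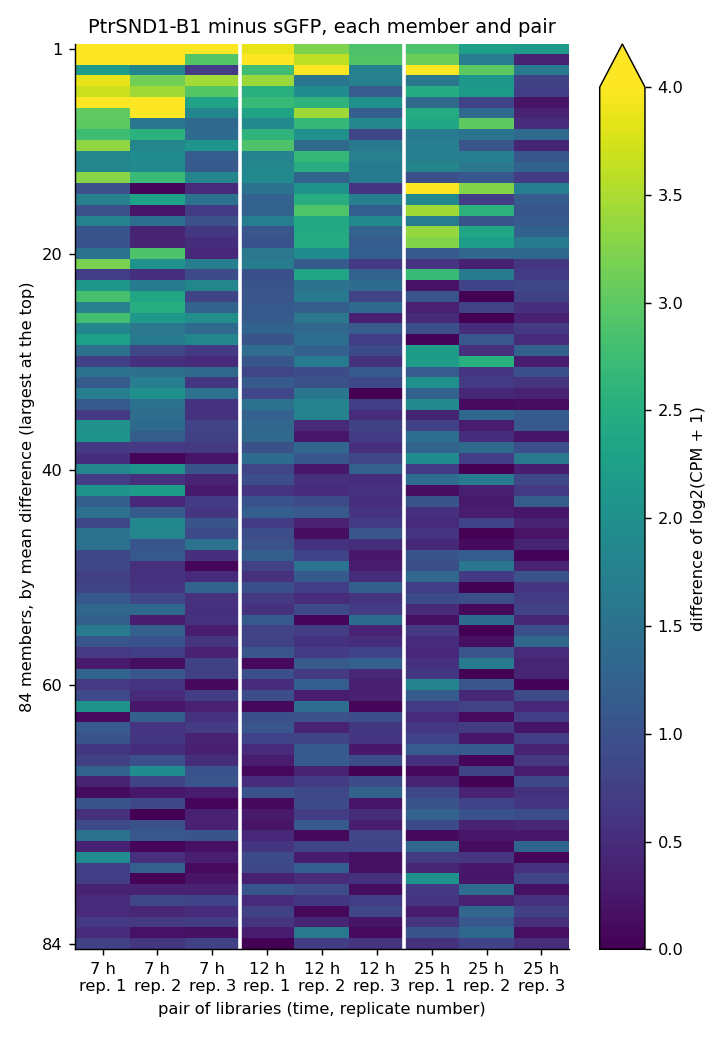
Difference of log2(CPM + 1), PtrSND1-B1 minus sGFP, for each of the 84 members (horizontal lines, largest mean at the top) in each of 9 pairs of libraries (columns, by time and replicate number), with the colour scale ending at 4. All values are above 0 by the rule, most of the uppermost members have their largest values at 7 h, and a few of the upper lines have them at 25 h.

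POPTR_0007s14780.1, the member with the largest mean difference, averaged 1.34 CPM in control cells. In sGFP protoplasts it stood at 3.39, 0.889 and 1.28 CPM at 7 h, at 1.54, 1.94 and 1.26 at 12 h and at 0.931, 0.731 and 0.128 at 25 h, for replicates 1, 2 and 3. In PtrSND1-B1 protoplasts its levels were 127, 85.6 and 56.3 CPM at 7 h, 35.5, 26.4 and 15.7 at 12 h and 13.1, 7.06 and 3.98 at 25 h. The groups did not overlap at any time, and the PtrSND1-B1 level was highest in replicate 1 and lowest in replicate 3 at each time, the same order as that of the transfected gene. The mean difference was 5.01 ± 0.45 (SD, n = 3) at 7 h, 3.32 ± 0.49 at 12 h and 2.41 ± 0.40 at 25 h.

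POPTR_0007s14730.1, 5 places away in the file, behaved much alike at 7 and 12 h. Its sGFP levels were 0.565, 1.11 and 4.40 CPM at 7 h, 0.329, 0.299 and 1.47 at 12 h and 0.0716, 0 and 0 at 25 h. Its PtrSND1-B1 levels were 68.4, 53.3 and 40.1 CPM at 7 h, 22.8, 14.9 and 17.6 at 12 h and 8.20, 2.23 and 0.306 at 25 h. No time showed an overlap, but the last PtrSND1-B1 value at 25 h lay within the range of what 1 read was worth. Its control level fell between 7 and 25 h, with a log2 fold change of -4.97 and a standard error of 1.34 (edgeR adjusted p = 0.0181), the largest of the falls called in sGFP. Over the 18 libraries the log2 levels of both genes had a Pearson correlation of 0.944.

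POPTR_0008s07370.1 had a different course, with a smaller difference at 7 h than at the later times. It stood at 19.8, 16.9 and 88.7 CPM in sGFP protoplasts at 7 h, at 5.49, 4.94 and 31.0 at 12 h and at 1.22, 1.10 and 5.37 at 25 h. With PtrSND1-B1 it stood at 93.8, 62.9 and 145 CPM at 7 h, at 43.2, 93.1 and 108 at 12 h and at 40.4, 15.6 and 19 at 25 h. Replicate 3 of the control was the highest at each time, and the groups overlapped at 7 h but not later. Its difference was 1.58 ± 0.78 at 7 h, 2.84 ± 1.11 at 12 h and 2.95 ± 1.29 at 25 h.

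POPTR_0018s13110.1 and POPTR_0002s07880.1 were low in the control and did not overlap at any time. For POPTR_0018s13110.1 the sGFP levels were 1.13, 1.33 and 0.367 CPM at 7 h, 0.878, 0.598 and 0.843 at 12 h and 0.358, 0 and 0.640 at 25 h. The PtrSND1-B1 levels of that gene were 30.0, 19.7 and 13.9 CPM at 7 h, 18.9, 3.74 and 5.15 at 12 h and 3.12, 3.34 and 1.84 at 25 h. The PtrSND1-B1 level was highest at 7 h in each replicate number. POPTR_0002s07880.1 went from 3.48 ± 0.0845 CPM (mean ± SD, n = 3) in sGFP to 45.8 ± 11.3 with PtrSND1-B1 at 7 h, from 1.46 ± 0.410 to 8.88 ± 5.63 at 12 h and from 0.933 ± 0.755 to 5.69 ± 2.30 at 25 h.

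POPTR_0010s25450.1 and POPTR_0010s18510.1 were close to the limit of detection without PtrSND1-B1, with 12 and 7 reads over all 9 sGFP libraries and 324 and 264 reads over the 9 PtrSND1-B1 libraries. POPTR_0010s25450.1 stood at 16.9, 21.0 and 4.83 CPM at 7 h, at 7.03, 6.90 and 3.00 at 12 h and at 2.73, 0.743 and 0.306 at 25 h with PtrSND1-B1, and at no more than 0.429 CPM in any sGFP library. POPTR_0010s18510.1 stood at 9.42, 16 and 2.57 CPM, then at 5.02, 12.9 and 1.29, and then at 4.88, 2.60 and 0.306 at the same times, and at no more than 0.365 CPM in any sGFP library. Both were lowest in replicate 3 at each time, and at 25 h that library was under the highest sGFP library for both genes.

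The other 5 of the 12 members with the largest mean difference were POPTR_0010s19090.1 (2.02), POPTR_0005s06280.1 (1.85), POPTR_0012s06920.1 (1.81), POPTR_0002s10170.1 (1.74) and POPTR_0002s10150.1 (1.73). None of them overlapped between groups at any time, except POPTR_0002s10150.1 at 12 h. POPTR_0002s10170.1 stood at 26.0, 19.6 and 61.2 CPM in sGFP and 95.3, 78.2 and 139 with PtrSND1-B1 at 7 h. It stood at 7.58, 6.43 and 27.8 CPM in sGFP and 28.3, 46.3 and 95.1 with PtrSND1-B1 at 12 h, and at 7.01, 2.56 and 4.99 against 25.4, 10.8 and 11.6 at 25 h. In both treatments replicate 3 was the highest at 7 and 12 h.

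**Figure D2:**
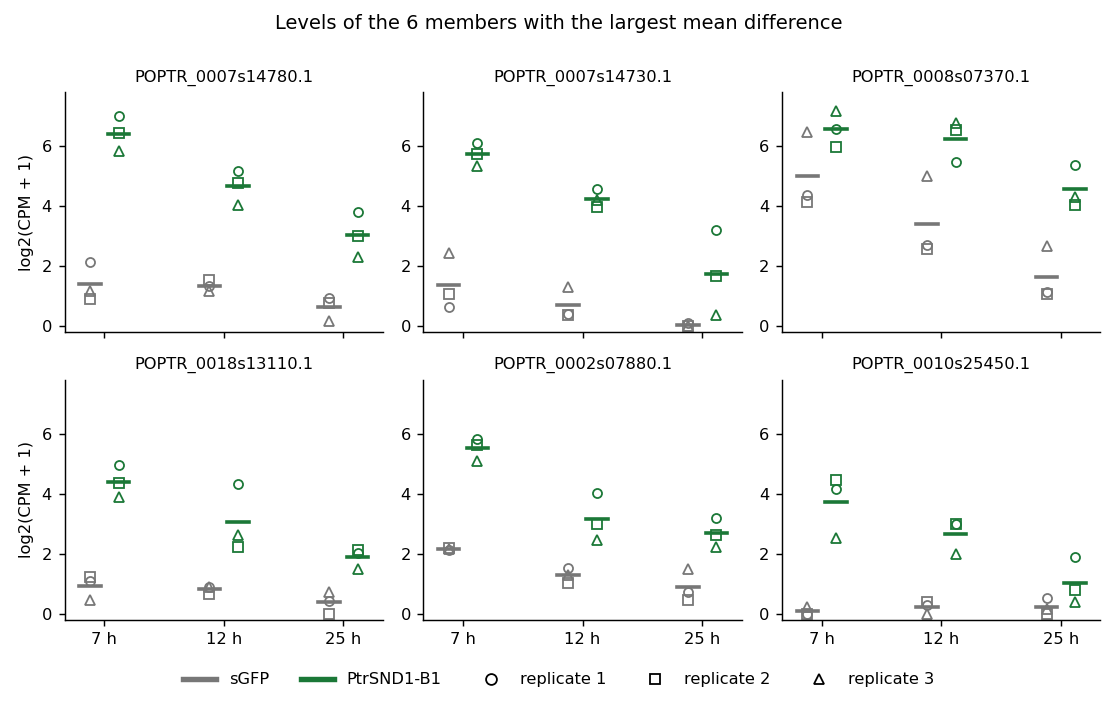
Levels of the 6 members with the largest mean difference as log2(CPM + 1), in sGFP (grey) and PtrSND1-B1 (green) libraries at 7, 12 and 25 h, with marker shapes for the replicate number and bars for the mean of 3 libraries. With PtrSND1-B1 each of the 6 genes was lower at 25 h than at 7 h, and in sGFP the mean CPM was also lower at 25 h in all of them except POPTR_0010s25450.1, with edgeR calls for POPTR_0007s14730.1 and POPTR_0008s07370.1.

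Summed over the 84 members, mean levels were lower at each later time in both treatments. The sum in sGFP protoplasts was 1029, 999 and 2176 CPM at 7 h, 508, 711 and 1400 at 12 h and 414, 584 and 479 at 25 h, for replicates 1, 2 and 3. In PtrSND1-B1 protoplasts it was 2628, 2212 and 3519 CPM at 7 h, 1131, 1748 and 2504 at 12 h and 986, 898 and 858 at 25 h. Replicate 3 stood above the other two libraries of its group at 7 and 12 h in both treatments, and at 12 h its sGFP sum exceeded the PtrSND1-B1 sum of replicate 1. Such a sum gives abundant genes the most weight. The level of the typical member, as the median over members, went from 6.25 to 3.29 to 1.32 CPM in sGFP and from 16 to 9.16 to 3.95 CPM with PtrSND1-B1, while the median over all genes kept stayed between 10.4 and 11 CPM in every group. In 51 of 84 members the mean level with PtrSND1-B1 at 25 h was below the mean sGFP level at 7 h, and in 33 it was above.

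**Figure D3:**
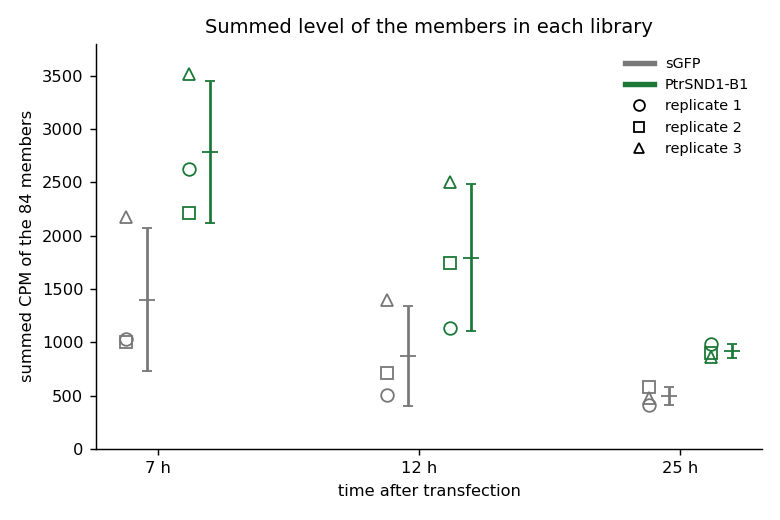
Summed CPM of the 84 members in each of the 18 libraries by time, with marker shapes for the replicate number and bars for the mean ± SD of 3 libraries in sGFP (grey) and PtrSND1-B1 (green). The mean sum in sGFP went from 1401 to 492 CPM and that with PtrSND1-B1 from 2786 to 914 CPM between 7 and 25 h.

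The change of control cells with time was not part of the rule, although the same sGFP libraries entered it. Between 7 and 25 h, 42 of the 80 members tested (52.5%) fell in sGFP protoplasts by edgeR's quasi-likelihood test at an adjusted p under 0.05, where 9.21% of all 23777 genes tested fell. Only 2 members rose, where 8.68% of all genes rose. The 42 falls ran from -1.12 to -4.97 in log2 fold change with a median of -2.67, and 35 of them were at least 4-fold. Over the 80 members the median log2 fold change was -2.07 with quartiles of -2.74 and -0.76, against a median of 0.00 with quartiles of -0.39 and 0.45 over all genes. It was below 0 in 67 of the 80. Not all of the 80 pass the edgeR filter on sGFP libraries alone. In a fit of the 9 sGFP libraries alone, with its own filter, 29 of the 58 members tested fell and 1 rose, where 6.39% and 6.70% of all genes did. The 4 members not tested were POPTR_0008s03850.1, POPTR_0002s17950.1, POPTR_0016s14890.1 and POPTR_0005s23660.1, whose counts were too low for the edgeR filter, and they are named here for that reason alone.

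Without a test, the fall was also seen in the same libraries as a lack of overlap. The 84 members counted here include the 13 that passed the filter only through PtrSND1-B1 libraries. In 53 of 84 members all 3 sGFP libraries at 25 h lay below all 3 at 7 h, where 22.7% of genes kept did so. In 3 members they lay above, where 9.41% of genes did so. The 435 tested genes that were higher in all 9 pairs by a smaller mean fell in 42 cases (9.66%) and rose in 46 (10.6%), with a median of 0.00. Of the 63 genes lower in all 9 pairs by 0.6 or more, 22 fell (34.9%) and 2 rose (3.17%), with a median of -0.57. Whether these shares differ from that of the members was not tested. In bulk RNA from protoplasts, fewer cells of a type and less RNA per cell cannot be told apart.

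POPTR_0004s05830.1 had the smallest adjusted p among the members that fell. It stood at 53.9, 78.9 and 97.5 CPM in sGFP at 7 h, at 19.4, 36.1 and 60.7 at 12 h and at 6.37, 13.9 and 11.1 at 25 h. Every library at 25 h was below every library at 7 h, and its log2 fold change was -2.74 with a standard error of 0.37 (edgeR adjusted p = 0.000201). With PtrSND1-B1 it fell alongside, from 152, 144 and 157 CPM at 7 h to 53.9, 85.9 and 114 at 12 h and 32.4, 20.8 and 27.5 at 25 h. At each time its level was higher with PtrSND1-B1 in every pair, and at 12 h the groups overlapped.

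POPTR_0011s07040.1 went from 46.9, 48.7 and 63.4 CPM in sGFP at 7 h through 19.4, 18.6 and 48.5 at 12 h to 12.0, 8.40 and 9.98 at 25 h, a log2 fold change of -2.17 with a standard error of 0.32 (edgeR adjusted p = 0.000367). POPTR_0002s25970.1 went from 83, 90.5 and 158 CPM through 35.2, 36.4 and 104 to 14.2, 15.0 and 17.8, a log2 fold change of -2.61 with a standard error of 0.43 (edgeR adjusted p = 0.00089). In both genes the 12 h library of replicate 3 lay near the 7 h libraries of replicates 1 and 2, and the 25 h libraries were close together. The next members by edgeR adjusted p were POPTR_0016s15080.1, POPTR_0016s12660.1, POPTR_0011s05700.1, POPTR_0013s00340.1 and POPTR_0011s07160.1, with log2 fold changes of -2.31 to -3.20 and adjusted p of 0.00149 to 0.00245. Without overlap between the times, POPTR_0016s15080.1 fell from 34.4, 26.9 and 71.9 CPM at 7 h to 5.73, 5.85 and 4.22 at 25 h.

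POPTR_0014s06170.1 and POPTR_0002s01280.1 were the members that rose in control cells. POPTR_0014s06170.1 stood at 2.54, 1.11 and 0.367 CPM at 7 h, at 4.17, 11.8 and 2.53 at 12 h and at 25.9, 40.2 and 4.60 at 25 h, a log2 fold change of 4.27 with a standard error of 0.93 (edgeR adjusted p = 0.00525). Replicate 3 was the lowest library at each time, and 25 h did not overlap with 7 h. POPTR_0002s01280.1 rested on 51 sGFP reads in all and went from 0, 0.222 and 0.367 CPM to 1.43, 0.365 and 1.79, a log2 fold change of 2.71 (edgeR adjusted p = 0.0275). Its call was lost, with edgeR adjusted p of 0.0694 to 0.0897, without sGFP 7 h replicate 1 or 2 or sGFP 25 h replicate 1 or 3.

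**Figure D4:**
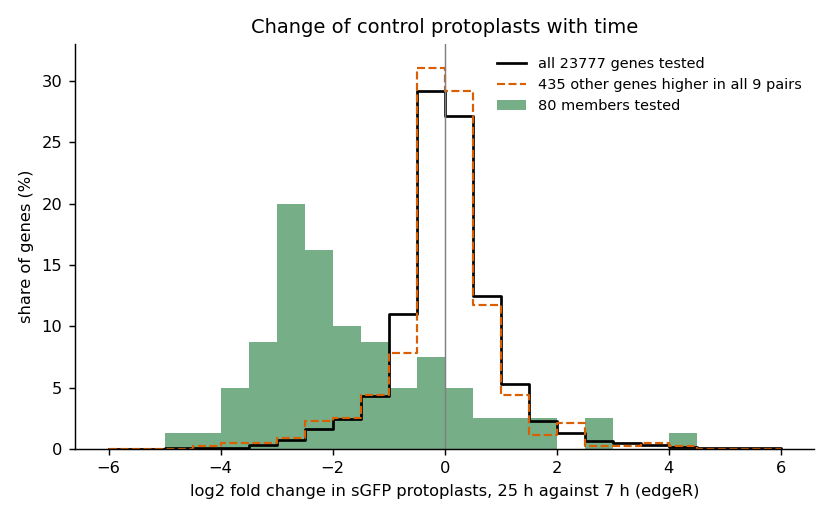
Share of genes (vertical axis, %) by log2 fold change between 25 and 7 h in sGFP protoplasts (horizontal axis, edgeR, bins of 0.5) for the 80 members tested (green bars), all 23777 genes tested (black line) and 435 other genes higher in all 9 pairs (dashed orange line). The members centre on a median of -2.07, whereas both other distributions centre on 0.

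The count of members that fell in sGFP protoplasts depended on single libraries. It was 23 without sGFP 25 h replicate 1 and 26 without sGFP 7 h replicate 3, where 5.59% and 7.42% of all genes fell, with medians over the members tested of -1.99 and -1.59. With a block for the replicate number, 50 members fell and 6 rose, where 16.6% and 15.3% of all genes did. The time steps in between gave few calls. From 7 to 12 h edgeR called 0 of 80 members in either direction (0.0799% of all genes lower and 0.151% higher), with 23 at an unadjusted p under 0.05 (28.8% of members, 12.2% of all genes). With the block, 19 fell and 2 rose (3.56% and 2.89% of all genes). From 12 to 25 h edgeR called only POPTR_0004s05830.1 lower (0.236% of all genes), while with the block 30 fell and 1 rose (4.9% and 4.44% of all genes).

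PtrSND1-B1 protoplasts changed in the same direction over time. These libraries entered the rule, and 13 members passed the filter only through them, so the counts here are descriptions. Between 7 and 25 h 40 of 80 members fell and 1 rose by edgeR (8.68% and 8.12% of all genes), in a contrast added after the data were seen, with a median log2 fold change of -1.92 over the 80. With the block 54 fell and 5 rose (16.5% and 14.4%). Among the 42 members that fell in sGFP, 30 were also called lower there. The matching share over all genes is not given here, so nothing about the members is read from that count. The member that rose was POPTR_0014s06170.1, which reached 36.3, 43.9 and 8.26 CPM at 25 h from 2.85, 3.91 and 1.06 at 7 h.

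The observed size of the difference between PtrSND1-B1 and sGFP varied between times in individual members without a common direction. Tests of that change, given below, called no member, so the orderings here are descriptions. On the log2(CPM + 1) scale the difference was largest at 7 h in 43 members, at 12 h in 14 and at 25 h in 27. It was smaller at each later time in 37 members and larger at each later time in 23. The median over members of the mean difference was 0.92 at 7 h, 0.86 at 12 h and 0.80 at 25 h, but this order rested on the constant of 1 added to CPM, which counts for more as levels fall. With 0.5 in its place the medians were 1.04, 0.98 and 1.02, and the edgeR log2 fold changes of PtrSND1-B1 against sGFP had medians of 1.01, 1.10 and 1.27. The members as a group thus had no direction over time that held on every scale.

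In 22 members all 3 differences at 25 h were below all 3 at 7 h (6.26% of genes kept), and in 9 they were above (5.5%). These counts are on the log2(CPM + 1) scale, where the constant of 1 counts for more as levels fall. By edgeR log2 fold change, the difference was larger at 25 h than at 7 h in 41 of 80 members and smaller in 39. POPTR_0016s11950.1, singled out after its values were seen, had the largest mean difference at 25 h among the 9. It stood at 22.3, 26.0 and 62.2 CPM in sGFP and 45.4, 27.0 and 88.1 with PtrSND1-B1 at 7 h, then at 5.05, 8.08 and 41.7 against 16.4, 36.8 and 64.4 at 12 h, and then at 0.644, 1.83 and 6.27 against 34.3, 26.0 and 22.9 at 25 h. The groups overlapped at 7 and 12 h and were far apart at 25 h, and the difference went from 0.51 ± 0.47 through 1.40 ± 0.73 to 3.13 ± 1.36. Its fall in sGFP was called, at -3.38 with a standard error of 0.87 (edgeR adjusted p = 0.0143), and the change with PtrSND1-B1 was -0.76 with a standard error of 0.75 (edgeR adjusted p = 0.526).

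POPTR_0014s06400.1, also singled out after its values were seen, had the opposite course. Its sGFP level was 15.0, 17.8 and 14.7 CPM at 7 h, 12.8, 15.1 and 13.7 at 12 h and 12.0, 13.5 and 11.6 at 25 h. With PtrSND1-B1 it stood at 43.8, 38.9 and 31.2 CPM at 7 h, at 18.1, 16.1 and 25.3 at 12 h and at 12.9, 16.4 and 14.1 at 25 h. The treatments did not overlap at 7 and 12 h and overlapped at 25 h, and the difference went from 1.21 ± 0.25 through 0.46 ± 0.38 to 0.20 ± 0.09. The fall with PtrSND1-B1 was -1.24 with a standard error of 0.19 (edgeR adjusted p = 0.000514), and the sGFP change was -0.18 with a standard error of 0.19 (edgeR adjusted p = 0.553).

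**Figure D5:**
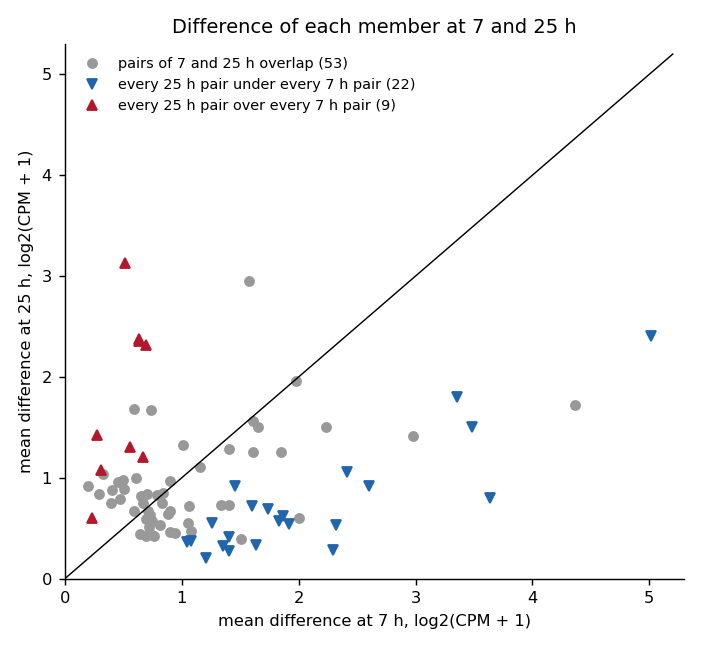
Mean difference of each member between PtrSND1-B1 and sGFP in log2(CPM + 1) at 25 h (vertical axis) against 7 h (horizontal axis), each the mean of 3 pairs, with the line of equality. On this scale the constant of 1 counts for more as levels fall. The 22 members with every 25 h pair under every 7 h pair (blue) include POPTR_0007s14780.1, with the largest difference at 7 h (5.01), whereas POPTR_0007s14730.1 (4.36) and POPTR_0010s18510.1 (2.98) overlap, and the 9 with the reverse (red) were at or under 0.70 at 7 h.

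Tests of the change in that difference between times called no member. They use the same differences that chose the members, so the choice constrains them, and they are given as a description. For the PtrSND1-B1 effect at 25 h minus that at 7 h, edgeR called 0 of 80 members (0% of all genes in either direction), with 6 at an unadjusted p under 0.05, 3 higher and 3 lower (7.50% of members, 0.955% of all genes). DESeq2 also called 0 (0.0126% of all genes lower, 0% higher), with 8 at an unadjusted p under 0.05 (10.0% of members, 0.770% of all genes). With a block per pair of libraries 0 were called (0.00841% of all genes higher, 0.0589% lower) and 21 had an unadjusted p under 0.05 (26.2% of members, 7.91% of all genes), 13 higher and 8 lower. In that fit the change was 2.56 with a standard error of 0.51 for POPTR_0958s00200.1, which had the smallest p of the members. It was 2.94 with a standard error of 0.60 for POPTR_0016s11950.1 and -1.04 with a standard error of 0.21 for POPTR_0014s06400.1. For 12 h minus 7 h edgeR called 0 members too, with 1 at an unadjusted p under 0.05 (1.25% of members, 0.454% of all genes). For 25 h minus 12 h it called 0, with 0 at an unadjusted p under 0.05 (0.551% of all genes).

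Replicate 3 gave the smallest difference more often than the others. It was the lowest of the 3 pairs in 53 members at 7 h, in 47 at 12 h and in 41 at 25 h, which is 63.1%, 56.0% and 48.8% of the 84, and in 21 members at all times. Among the 439 genes higher in all 9 pairs by a smaller mean, the share was 38.0%, 33.9% and 17.1%. The median difference over members was 1.18, 1.08 and 0.70 in replicates 1, 2 and 3 at 7 h, 1.01, 1.13 and 0.76 at 12 h and 1.00, 0.80 and 0.65 at 25 h. In the same order the transfected gene stood at 3442, 2077 and 1563 CPM at 7 h, at 1961, 1082 and 843 at 12 h and at 1474, 752 and 366 at 25 h, and the sGFP sum of the members was highest in replicate 3 at 7 and 12 h. The part of either in the smaller differences was not tested.

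Several members lie beside each other in the file or share nearly all of their pattern. There were 7 pairs of members with at most 5 places between their identifiers in the file, 14 genes in all. How many such pairs other sets of genes hold is not given here. Pearson correlations of log2 levels within the 7 pairs ran from 0.627, for POPTR_0008s03850.1 and POPTR_0008s03880.1, to 0.997. POPTR_0002s10170.1 and POPTR_0002s10150.1 had a Pearson correlation of log2 levels of 0.997 over the 18 libraries. By the same measure the closest members were POPTR_0006s09840.1 and POPTR_0958s00200.1 at 0.998, followed by POPTR_0006s09830.1 with POPTR_0006s09840.1 at 0.995, and POPTR_0002s10150.1 with POPTR_1040s00200.1 at 0.991, pairs named after their values were seen. All 18 libraries share the same treatments and times, and the treatment of reads with several matches is not known here. No sequences were compared, so whether these genes are near-identical copies that share reads is not known. Their separate values are therefore uncertain. Over all pairs of members the median correlation of the 9 differences was 0.15. Noise from low counts pulls such a value towards 0, and no value for other genes is given here. Whether members follow each other from pair to pair is therefore not read from it.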

How the data were processed

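RNA-seq was analysed from the deposited table of raw counts, which holds read numbers for 45033 gene models in 18 libraries. TopHat and edgeR are named, per the submitters' processing notes, without role or version. Not given in the sources used here are the genome build, annotation, counting tool, strandedness and treatment of multiply mapping reads, so overlapping, antisense and near-identical genes are uncertain. Libraries were grouped by their titles. Each locus entered with its first model. Of the members' loci, 3 had more than 1 model, with identical models in 2. Libraries of a group differed beyond sampling noise (chi-square per degree of freedom 5.88 to 46.8), so none was merged.

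The members and lists were chosen with earlier results of these data known. CPM was the count divided by the library's total over first models. Counts were tested with edgeR 4.0.16 in R 4.3.3 (filterByExpr, TMM factors 0.797 to 1.09, 6 group means, 12 residual degrees of freedom, glmQLFTest, Benjamini-Hochberg over 23777 genes). The procedure was also run on simulated counts. These were drawn without the pairing of libraries described below, so that run cannot show how the pairing affects the test. DESeq2 1.42.0 was an alternative, with others given in the closing section. Same-numbered libraries of one time deviated together from their group means (correlation 0.356 to 0.755, median 0.679), a pairing seen in the data, which no label states, so fits with a replicate block were also made.

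Named genes were the 12 members with the largest mean difference, up to 8 called members per direction of change with the smallest adjusted p, and the 3 on each side of the threshold. Others are said to be chosen after their values were seen, and the transfected gene is named as the check of the labels. Of the members' loci, 0 matched the reference table of 34621 genes. Keyword gene lists, cell type markers, promoter motifs and sequences were therefore not analysed here. Without molecular identifiers, reads do not count independent molecules.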

Additional observations from a re-analysis of the deposited data

How the results depend on the processing

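The number of members was 35 with a mean difference of at least 1, 155 with differences of group means in place of the pairs (no replicate block, 79 of the 84 shared) and 157 with group means of log values (added after the data were seen), and 78 to 114 with 1 pair left out. The median difference over members moved from 0.82 to 1.02 with a constant of 0.5, and that at 25 h from 0.80 to 1.02 with 0.5 and 0.56 with 2. For sGFP at 12 against 7 h the replicate block gave 2 members higher and 19 lower. For 25 against 12 h it gave 1 higher and 30 lower, DESeq2 gave 11 lower (0.967% of all genes), the sGFP libraries alone gave 0 lower, and leaving out 1 library gave 0 to 1 lower. For 25 against 7 h the members that rose numbered 4 with DESeq2 (10.1% of all genes), 1 in the sGFP libraries alone (6.70%; 29 of 58 members fell), 6 with the replicate block (15.3%) and 1 to 3 without 1 library, and those that fell 23 to 43 without 1 library. With PtrSND1-B1 at 25 against 7 h, given as a description, 2 members rose with DESeq2 (9.70% of all genes) and 5 with the replicate block (14.4%). Leaving out 1 library gave 1 to 2. Those that fell numbered 44 with DESeq2 (9.78%), 54 with the replicate block (16.5%) and 28 to 43 without 1 library. Members called higher with PtrSND1-B1 over the mean of the times, which the rule fixed and which are no support, numbered 22 with edgeR (0.135% of all genes), 40 with DESeq2 (0.311%), 59 with the replicate block (0.463%), 78 with a block for each pair (3.91%) and 12 to 33 without 1 library. The causes were not tested. With library size alone the median of all genes between 25 and 7 h in sGFP shifted to -0.16, and 47 members fell, where 12.1% of all genes did. Among the main recomputed counts and medians, 39 moved, 425 stayed close to the values reported and 0 were classed as reversed. Of further results, 4 became weaker and 0 were classed as reversed. These classes leave out the order of the median difference over the times, which did reverse with the scale. In log2(CPM + 1) that median went from 0.92 at 7 h to 0.80 at 25 h, whereas the edgeR median went from 1.01 to 1.27. Listed genes and promoter motifs were not run, because no identifier was matched to a name. Depth limits the members that stood near 1 read in sGFP, whose fold changes have wide errors.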
